A study of Mus musculus with 7 samples.

Results

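The 29 genes described here are the enzymes of cholesterol synthesis and the proteins that control their transcription through SREBP, the sterol regulatory element binding proteins. They were chosen by symbol in 1 table of normalized counts for 35976 genes in mouse adrenal glands, and all 29 were found. By role they were 9 enzymes that lead from acetyl-CoA to squalene or its side branch, 11 proteins of the path from squalene to cholesterol, 7 of the SREBP control system, and the sterol-regulated genes Stard4 and Mylip. 0610007P14Rik is the symbol in the table for the mouse homologue of Erg28, a scaffold protein of sterol demethylation.

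Glands came from the inbred mouse strain C57BL/6J, with no engineered allele or treatment named in the labels, and each pool of glands gave 1 RNA-seq library of total RNA. The E18.5 embryonic pool held 40 glands of undetermined sex. Postnatal pools were P1 male (16 glands), P1 female (22 glands), 2 weeks male and 2 weeks female (6 glands each), and 12 weeks male and 12 weeks female (4 glands each), where P1 is postnatal day 1. No group had a second library, so a p-value below measures only the spread that remains between pools once age, or age and sex, is accounted for. That spread also holds any difference between the sexes in their change with age. In the comparison of E18.5 with P1 it holds the difference between the sexes itself.

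Cholesterol is built from acetyl-CoA through mevalonate, squalene and lanosterol. In the adrenal cortex it is the substrate of all steroid hormones, and cortical cells obtain it both by synthesis and by uptake from lipoproteins. SREBP precursors sit in the endoplasmic reticulum bound to the escort protein SCAP. When sterols are low, SCAP carries them to the Golgi, where the proteases encoded by Mbtps1 and Mbtps2 release the part that enters the nucleus and activates the genes of this pathway. When sterols are high, the INSIG proteins hold SCAP and SREBP back, and Insig1 is itself an SREBP target.

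SREBP acts on promoters together with NF-Y and Sp1, so the upstream sequences of genes that rose together from P1 to 2 weeks were examined. Promoter windows of 300 bases, 250 before and 50 after a start site, were taken from RefSeq (GRCm38.p6), and 25 of the 29 members had at least 1. Both strands were searched for TCACNCCAC (a form of the sterol regulatory element), CACGTG (an E-box), CCAAT (NF-Y) and GGGCGG (Sp1), and no motif contains another. CCAAT was in a window of 20 of the 25 members (80.0%), against 41.1% of all 27025 genes with a window and 42.3% of those whose expression was analysed. GGGCGG was in 22 members (88.0%), against 38.2% and 64.0%. CACGTG was in 5 members, against 8.09% and 10.9%, and TCACNCCAC was in Hmgcs1 alone (4.0%), against 1.44% and 1.46%. These are matches of letters, described without a test. The stretches printed here, 5′ to 3′ on the gene's strand with these motifs in capitals on either strand, belong to 4 of the 7 members that rose, chosen because they hold the motifs. Of the others, the stretch for Idi1, from 250 to 106 bases before its start site, held 0 matches to any of them. Nearer that site, the Idi1 window held CCAAT 45 and 14 bases and GGGCGG 69 bases before it. The stretch for Acat2 held 1 GGGCGG, and that for Msmo1 was too short to print. The Msmo1 window held CCAAT 160, 96 and 55 bases and GGGCGG 73 and 62 bases before its start site. Hmgcs1 carries the TCACCCCAC match, which starts 137 bases before the start site (chr13:119690201-119690350, plus strand), Mvk has CCAAT 4 times (chr5:114444119-114444268, plus strand), and Sc5d (chr9:42264301-42264450, minus strand) and Insig1 (chr5:28071213-28071362, plus strand) carry a CACGTG, 98 and 101 bases before their start sites.
Hmgcs1: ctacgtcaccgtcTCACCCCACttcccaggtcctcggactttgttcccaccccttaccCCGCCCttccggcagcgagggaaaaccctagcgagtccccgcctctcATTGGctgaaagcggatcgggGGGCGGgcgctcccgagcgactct
Mvk: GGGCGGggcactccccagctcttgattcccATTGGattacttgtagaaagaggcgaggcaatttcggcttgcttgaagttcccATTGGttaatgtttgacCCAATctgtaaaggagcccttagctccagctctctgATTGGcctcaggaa
Sc5d: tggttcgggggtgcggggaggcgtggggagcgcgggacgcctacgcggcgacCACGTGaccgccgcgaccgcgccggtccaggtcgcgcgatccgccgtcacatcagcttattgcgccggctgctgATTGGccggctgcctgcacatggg
Insig1: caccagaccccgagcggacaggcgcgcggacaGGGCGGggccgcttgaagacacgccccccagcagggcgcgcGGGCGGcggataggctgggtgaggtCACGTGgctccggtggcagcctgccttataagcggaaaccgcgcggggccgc

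Libraries held 15184210 to 23551289 reads in genes, and all 29 members passed the minimum of 10 normalized counts on average, which left 16720 genes in all. The library labelled P1 female contained Y-linked transcripts: relative to P1 male, the median over 4 Y-linked genes was 21.02% there, against 0.083% in 2 weeks female and 0.020% in 12 weeks female. The fits with P1 as an age use the library labelled P1 female. The 12 cortical steroidogenesis markers were detected in all 7 libraries and summed to 645106 normalized counts in the embryonic pool, 448293 (male) and 269987 (female) at P1, 553822 to 560008 at 2 weeks and 885203 to 1158833 at 12 weeks. Markers of other tissues varied as well. The sum over 10 liver genes was 324389 at E18.5, 286156 to 412546 at P1, 13731 to 35913 at 2 weeks and 446 to 508 at 12 weeks. Over 8 adipocyte genes it was 583 to 1032 up to P1 and 22603 to 37479 later, with Cfd and Lep at 0 at E18.5 and Lep at 0 in P1 male. Over 8 skeletal muscle genes the sum was 40370 (embryonic), 81025 and 147726 (P1 male and female), 186 and 5823 (2 weeks) and 59 in each 12-week library. Kidney genes summed to 1315 in the embryonic pool, 9373 and 2552 at P1 and 35 to 65 later. Erythroid genes went from 116692 before birth to 65117 and 62430 at P1 and 5478 to 26445 later, and cell cycle genes from 18173 to 27732 up to 2 weeks to 1281 and 1386 at 12 weeks. Their part in the results below was not tested, and in bulk RNA fewer cells of a type and less RNA per cell cannot be told apart.

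Levels can be set against each other only per length, for which exon lengths of GENCODE M21 (GRCm38) were used. On the scale of normalized counts per kilobase of exon, averaged over the 7 libraries, Hmgcs1, the synthase that joins acetyl-CoA and acetoacetyl-CoA, was highest at 1209. It was followed by Dhcr7, a reductase that yields cholesterol, at 682.8, Fdps, which makes farnesyl diphosphate, at 432.4 and Ggps1, which makes geranylgeranyl diphosphate, at 385.6. Lowest were Tm7sf2, a sterol reductase, at 31.1, Idi1, the isopentenyl diphosphate isomerase, at 68.0 and Mbtps2, the intramembrane protease, at 69.2. Hmgcs1 ranged from 789 to 1933 per kilobase over the libraries and Dhcr7 from 382.0 to 1159, so these ranges overlap. Within a library, Hmgcs1 was above Dhcr7 except in P1 male (861.0 against 866.9). Srebf1, at 330.8, had about the level of Scap at 326.5. Over the libraries its range of 174.6 to 461.5 overlapped that of Srebf2, at 166.6 with a range of 124.7 to 198.5. Within each library Srebf1 was above Srebf2, most narrowly in P1 female (174.6 against 171.2).

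In normalized counts, which are used from here on, the members varied unequally. Insig1 spanned the widest range, 6.50-fold between its highest and lowest library, followed by Msmo1 (4.32-fold), Sqle (4.20-fold) and Fdps (4.14-fold). Scap spanned 1.30-fold, Ebp, an isomerase of the sterol ring, 1.35-fold and Pmvk, the phosphomevalonate kinase, 1.38-fold. The E18.5 library held the highest value of 11 members and the lowest of 0. P1 male and P1 female together held the lowest value of 16, namely 6 and 10. How many of all genes had their extremes in these libraries was not counted. The heat map of members by library shows the 2 P1 columns low for most enzymes, and Scap, Mbtps1 and Mbtps2 pale throughout.

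**Figure D1:**
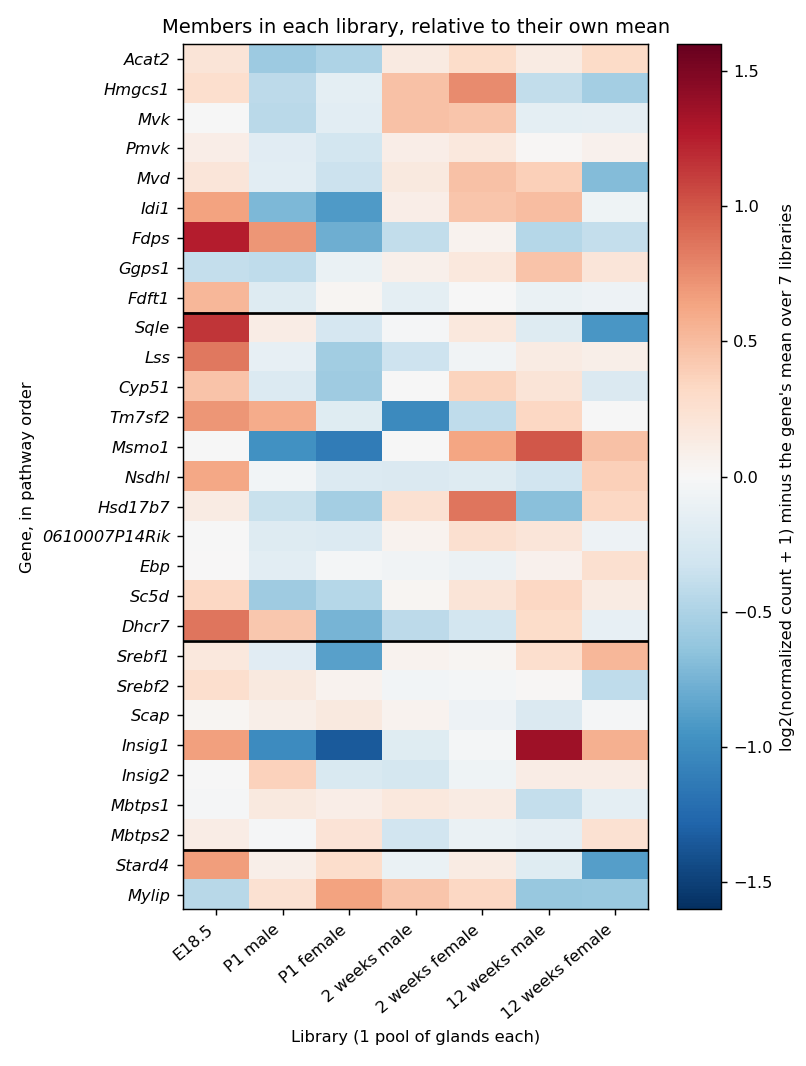
Heat map of the 29 members (rows, in pathway order, black lines between the 4 role groups) in the 7 libraries (columns), coloured by log2(normalized count + 1) minus the gene's own mean. E18.5 holds the highest value of 11 members, the P1 libraries hold the lowest of 16, and Insig1 spans 6.50-fold.

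Across birth, most synthesis enzymes were lower in both P1 libraries than in the single E18.5 library, while Scap, its partners Insig2, Mbtps1 and Mbtps2, and the side-branch enzyme Ggps1 were not. In all, 23 of 29 members (79.3%) were below E18.5 in both P1 libraries, against 34.1% of all genes analysed. The 11 members between squalene and cholesterol were all among them, as were 8 of the 9 earlier enzymes. Summed over the 20 enzymes and scaffold proteins of synthesis, normalized counts were 32305 in the embryonic pool, 21409 (male) and 17379 (female) at P1. In males and females they were 23871 and 28800 at 2 weeks and 25284 and 21636 at 12 weeks. These sums are not per length, and genes with many counts, such as Hmgcs1, Dhcr7 and Fdps, weigh most in them. With the 20 weighted equally, the mean log2 value relative to each gene's own mean was 0.40 at E18.5. It was -0.19 (male) and -0.41 (female) at P1, -0.04 and 0.21 at 2 weeks, and 0.09 and -0.05 at 12 weeks. The median log2 difference of the members was -0.42 in P1 male and -0.55 in P1 female, against 0.03 and 0.04 over all genes. Both comparisons share the E18.5 library. In P1 male 3 members were at least 2-fold lower and 0 higher, where 8.4% of all genes were 2-fold apart, 3.5% lower and 4.9% higher. In P1 female 9 were 2-fold lower and 1 higher, where 13.2% of all genes were 2-fold apart, 6.12% lower and 7.04% higher.

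Insig1, the sterol-dependent retention protein, had 1461 normalized counts in the E18.5 library and 459.9 (male) and 365.4 (female) in the P1 libraries. It was 3.18-fold lower in P1 male (95% counting interval 2.89 to 3.50) and 4.00-fold lower in P1 female (3.55 to 4.51). These intervals cover counting error only, and reads were counted without molecular identifiers. Idi1 had 347.8 before birth, then 135.0 (male) and 118.1 (female). Both genes had similar values in the 2 P1 libraries and far higher ones at E18.5. Sqle, the squalene epoxidase, had 1545 before birth, then 761.0 (male) and 579.5 (female). These 3 genes were at least 2-fold lower in both P1 libraries, which held for 2.24% of all genes. Lss, the lanosterol synthase, had 1307, 662.8 and 491.2 normalized counts in the same order, and Cyp51, the lanosterol demethylase, 1997, 1253 and 980.2. Msmo1, an oxidase of sterol demethylation, had 1851, 953.3 and 861.0.

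Fdps and Dhcr7 separated the 2 P1 libraries. Fdps had 3864 normalized counts before birth, then 2627 (male) and 933.8 (female), and Dhcr7 had 6742, 5043 and 2222. For both, P1 male lay nearer to E18.5 and P1 female far below. Marker sums separated the same libraries. Steroidogenesis, liver, kidney and exocrine pancreas genes were higher in P1 male (412546 against 286156 for liver, 6310 against 98 for pancreas). Skeletal muscle, chromaffin and Schwann cell genes were higher in P1 female (for the last 9269 against 2839). The part of these markers in the values of Fdps and Dhcr7 was not tested. Mylip went the other way: this ubiquitin ligase, which promotes degradation of lipoprotein receptors, had 332.7 before birth, then 535.1 (male) and 708.6 (female). Srebf2 had 1426, 1323 and 1229.6, and Srebf1 had 2020, 1579 and 983.5.

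The E18.5 and P1 libraries were set against each other in limma with the 4 ages as groups, which assumes that the lone E18.5 library varies like the others. No member passed an adjusted p of 0.05, with 14 of 29 at an unadjusted p under 0.05, against 13.9% of all genes, and edgeR's quasi-likelihood test on the recovered reads also called 0 (13 unadjusted). Of all genes 0.00598% were called, which was the single gene Pck1. The largest member differences were in Insig1 (log2 -1.83 ± 0.32 SE, adjusted p 0.195, lower in 2 of 2 P1 libraries), Idi1 (-1.45 ± 0.30, adjusted p 0.204) and Fdps (-1.30 ± 0.53, adjusted p 0.352). The largest positive difference was in Mylip (0.89 ± 0.22, adjusted p 0.230).

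**Figure D2:**
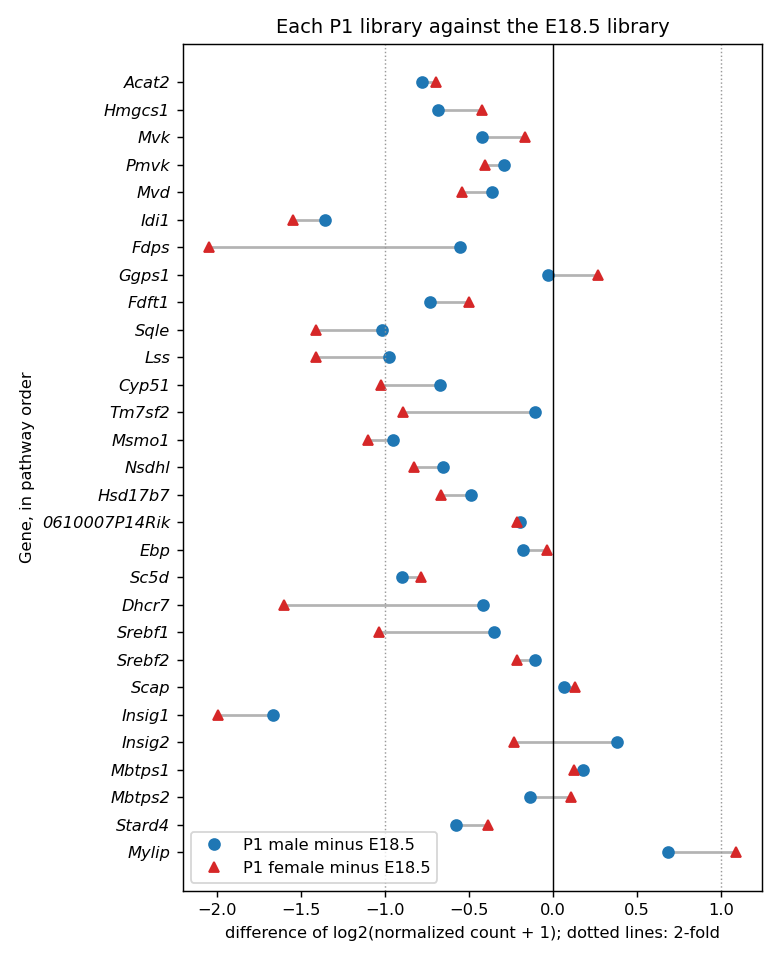
Difference of log2(normalized count + 1) between each P1 library and the E18.5 library (x axis) for the 29 members (y axis), blue circles for P1 male and red triangles for P1 female, with dotted lines at 2-fold. For 23 members both symbols lie left of 0, and Fdps and Dhcr7 show the widest gaps between the P1 libraries.

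From P1 to 2 weeks, genes at both ends of the pathway rose in both sexes. In limma, with sex as a block over the 6 postnatal libraries, 7 of 29 members passed an adjusted p of 0.05 and all 7 rose. Over all genes 16.4% were called, 5.89% in the upward direction, and 24.1% of the members were called. The median difference of the members was 0.15, against 0.00 over all genes. Of the 9 enzymes up to squalene 4 rose, of the 11 later proteins 2 rose, and of the 7 SREBP control genes 1 rose.

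Among the early enzymes, Hmgcs1 had 3956 normalized counts in P1 male, 4745 in P1 female, 7291 in 2 weeks male and 8880.5 in 2 weeks female, and rose by 0.89 ± 0.17 (SE, adjusted p 0.0173 in limma). Acat2, the cytosolic thiolase that makes acetoacetyl-CoA, had 361.7, 383.0, 597.8 and 665.2 in the same order and rose by 0.76 ± 0.16 (adjusted p 0.0233). Mvk, the mevalonate kinase, had 231.6, 277.1, 432.3 and 426.1 and rose by 0.76 ± 0.19 (adjusted p 0.0389). In each of them both 2-week libraries were above both P1 libraries. Idi1 had 135.0, 118.1, 238.4 and 301.7, and rose by 1.08 ± 0.26 (adjusted p 0.0389).

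Later in the path, Msmo1 had 953.3 in P1 male, 861.0 in P1 female, 1860 in 2 weeks male and 2882 in 2 weeks female, the largest rise of any member at 1.35 ± 0.27 (adjusted p 0.0203 in limma). Sc5d, a sterol desaturase, had 860.0, 928.3, 1306 and 1480 and rose by 0.64 ± 0.16 (adjusted p 0.0410). Insig1 had 459.9, 365.4, 806.8 and 904.3 and rose by 1.06 ± 0.24 (adjusted p 0.0297). The groups did not overlap in these genes either. The same values gave the calls, so the separation adds no support to them, and its share over all genes was not counted. Hsd17b7, a ketoreductase of sterol demethylation, had a difference of 0.998 ± 0.285 without passing (adjusted p 0.0607), and its 2-week values were 591.6 in male and 911.3 in female against 391.1 and 344.4 at P1. Tm7sf2 had the lowest difference, -0.91 ± 0.36 (adjusted p 0.141). Fdps moved in opposite directions, by -1.10 in males and 0.84 in females.

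These calls rested on few libraries. Without P1 male, P1 female or 2 weeks female no member passed, without 2 weeks male 1 did, and without either 12-week library 11 did, 10 higher and 1 lower. Without a trend in the variance prior, or with all genes of a mean above 0 in the test, the count was 0, with 8 and 9 members at an unadjusted p under 0.05.

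Between 2 weeks and 12 weeks an early enzyme and a control gene parted: Hmgcs1 fell while Insig1 rose. In limma 3 of 29 members passed (10.3%), 1 higher and 2 lower, against 15.3% of all genes (5.4% higher, 9.89% lower), so their share was no larger than the background. The median difference was -0.05, against -0.03 over all genes.

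Hmgcs1 went from 7291 and 8880.5 normalized counts in the 2-week male and female libraries to 4007 and 3623 at 12 weeks, a fall of 1.08 on the log2 scale (-1.08 ± 0.17 SE, adjusted p 0.00970 in limma). Mylip went from 617.4 and 569.9 to 296.4 and 299.8 (-0.99 ± 0.19, adjusted p 0.0197). Insig1 went from 806.8 and 904.3 to 2375 and 1368, a rise of 1.08 ± 0.24 (adjusted p 0.0294). All 3 changed the same way in both sexes, and the male step of Insig1, 1.56, was larger than the female step, 0.60, a difference that was not tested. The next largest differences did not pass: Tm7sf2 at 0.87 ± 0.36 (adjusted p 0.154), Hsd17b7 at -0.72 ± 0.29 (adjusted p 0.139) and Sqle at -0.63 ± 0.24 (adjusted p 0.118). With each of the 6 postnatal libraries left out in turn, Insig1 ran from 0.71 to 1.44 and Hmgcs1 from -1.29 to -0.87. Both genes lost their call in most of these fits, and Mylip, at -1.15 to -0.83, lost it in fewer. Without either 2-week library no member passed, without either P1 library 1 did, and without either 12-week library 5 did. Without a trend in the variance prior 1 member passed, with all genes of a mean above 0 in the test 0 did (5 at an unadjusted p under 0.05), and scaled to equal totals 5 did, 1 higher and 4 lower, where the median of all genes was -0.20.

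**Figure D3:**
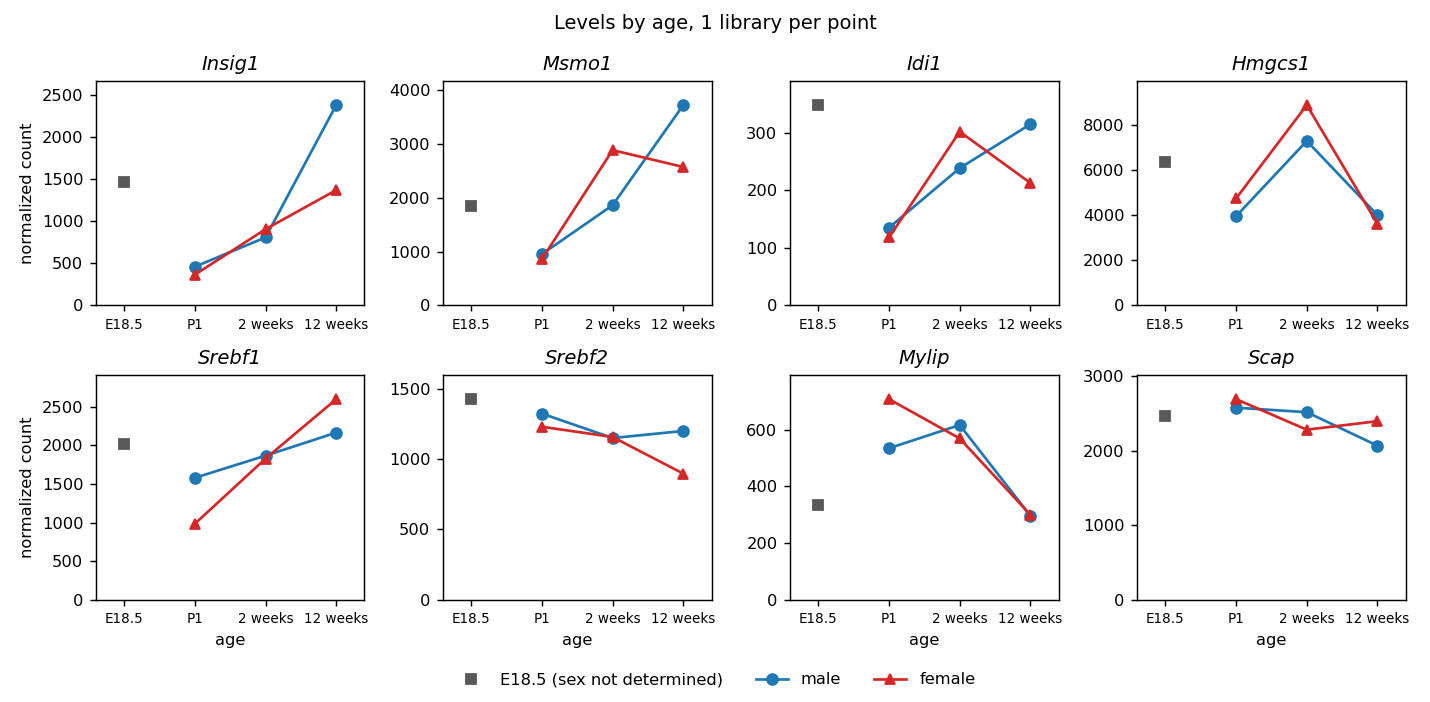
Normalized counts (y axis, from 0) of 8 members at the 4 ages (x axis), 1 library per point, grey squares for the unsexed E18.5 pool, blue circles for males and red triangles for females. Insig1 runs from 365.4 in P1 female to 2375 in 12 weeks male, Hmgcs1 peaks at 2 weeks, Mylip is at 296.4 and 299.8 at 12 weeks, and Scap spans 1.30-fold.

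Set directly against P1, the 12-week libraries were higher in Insig1, Msmo1, Idi1, Srebf1, Acat2, Sc5d and Ggps1 and lower in Mylip. These 8 of 29 members (27.6%) passed in limma, where 41.2% of all genes were called, so the share called in either direction was below the background. By direction, 7 of 29 rose, where 17.6% of all genes did, and 1 of 29 fell, where 23.5% did. Only the share that fell was thus below that of all genes. The median difference was 0.17, against -0.03 over all genes. Of the 9 early enzymes 3 rose, of the 11 later proteins 2 and of the 7 control genes 2.

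Insig1 changed most, by 2.13 ± 0.24 (SE, adjusted p 0.00102 in limma), from 459.9 and 365.4 normalized counts in P1 male and female to 2375 and 1368. Its adjusted p stayed under 0.05 without each of the 6 libraries in turn, with differences of 1.78 to 2.49 and adjusted p of 8.26e-07 to 0.0360. Msmo1 rose by 1.77 ± 0.27 (adjusted p 0.00317), from 953.3 and 861.0 to 3718 and 2569. Idi1 rose by 1.03 ± 0.26 (adjusted p 0.0222), with 314.6 in 12 weeks male and 212.7 in 12 weeks female. For each of these 3 genes the lower 12-week library was above the higher P1 library, which describes the values that gave the calls.

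Srebf1, which encodes the SREBP-1 precursors that mainly drive fatty acid synthesis, rose by 0.93 ± 0.23 (adjusted p 0.0202 in limma), from 1579 in P1 male and 983.5 in P1 female to 2166 in 12 weeks male and 2600 in 12 weeks female. Srebf2, which encodes the form that mainly drives cholesterol synthesis, had 1323, 1229.6, 1200 and 896.0 in the same order and a difference of -0.30 ± 0.16 that did not pass (adjusted p 0.186). The 2 genes thus lay in opposite directions, with the change in Srebf1 past the threshold and that in Srebf2 not, and the difference between them was not tested. Acat2 rose by 0.75 ± 0.16 (adjusted p 0.0105), Sc5d by 0.75 ± 0.16 (adjusted p 0.0112) and Ggps1 by 0.58 ± 0.17 (adjusted p 0.0365). With each of the 6 libraries left out in turn, the call was kept in 4 fits for Msmo1, Acat2 and Srebf1 (Srebf1 0.53 to 1.33, adjusted p up to 0.116), in 3 for Idi1 and Sc5d, and in 1 for Ggps1 (0.36 to 0.81, adjusted p up to 0.216). Ggps1 had 1344 and 1650.2 at P1 and 2450 and 2036 at 12 weeks.

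Mylip fell by 1.04 on the log2 scale (-1.04 ± 0.19, adjusted p 0.00640 in limma), from 535.1 and 708.6 to 296.4 and 299.8, and kept its call in 5 of 6 such fits. Stard4, a cytosolic sterol carrier whose gene responds to SREBP, had 622.7 and 710.9 at P1 and 508.9 and 316.8 at 12 weeks, and did not pass (-0.73 ± 0.25, adjusted p 0.0602). Sqle was the next lowest, at -0.49 ± 0.24 (adjusted p 0.141). Scap, Mbtps1, Mbtps2 and Insig2, the other parts of the control system, had differences from -0.40 to 0.06 and none passed. Without P1 male 3 members passed in all and without P1 female 2 did, and with all genes of a mean above 0 in the test 4 did. Scaled to equal totals, which moved the median of all genes to -0.15, 6 members were called higher and 3 lower.

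**Figure D4:**
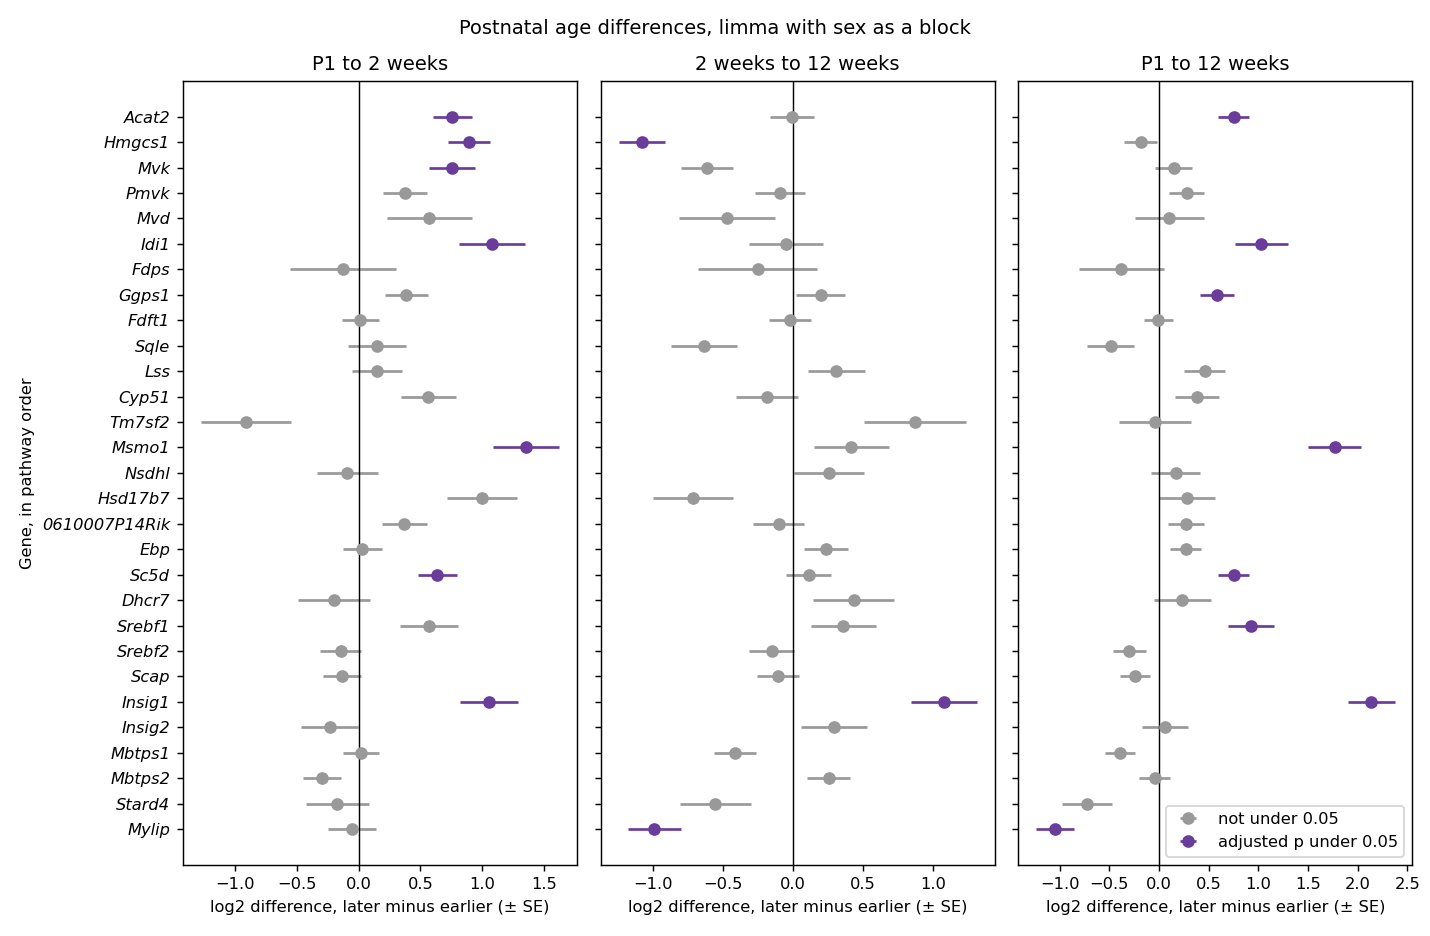
Log2 differences (x axis, later minus earlier age, bars ± SE) of the 29 members (y axis) from limma with sex as a block, for 3 pairs of postnatal ages, purple where the adjusted p was under 0.05. Purple points number 7, 3 and 8 in the left, middle and right panels, with Insig1 farthest right in the last panel at 2.13.

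Between the sexes no member passed the test across ages. With age as a block, limma called 0 of 29 members, 0 at an unadjusted p under 0.05, and edgeR's quasi-likelihood test called 0 (0 unadjusted). Of all genes 0.00598% were called, which was Xist alone. The test counted the library labelled P1 female as female, though it held Y-linked transcripts at 21.02% of the P1 male level. Whether this made the differences between the sexes smaller was not tested. Member differences, male minus female, ran from -0.48 (Hsd17b7, SE 0.23) to 0.50 (Dhcr7, SE 0.24), each with an adjusted p of 0.999, with a median of 0.02. Of the 29 members 0 were higher in males at every age and 3, Acat2, Fdft1 and Mbtps2, were lower in males at every age. The same count over all genes was not made.

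Within an age there was 1 library per sex, so only counting error can be given. At P1, 2 members (6.90%) were at least 2-fold apart, against 6.78% of all genes (3.75% higher and 3.03% lower in the male). Fdps was 2.81-fold (95% counting interval 2.61 to 3.04) and Dhcr7 2.27-fold (2.16 to 2.39) higher in P1 male than in the library labelled P1 female. Tm7sf2 was 1.73-fold (1.37 to 2.21) and Srebf1 1.61-fold (1.48 to 1.74) higher in P1 male. Of the 29 members 10 were higher and 7 lower in P1 male beyond counting error, and this share over all genes was not counted.

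At 2 weeks no member was 2-fold apart, against 4.24% of all genes (0.568% higher and 3.67% lower in the male), but 23 of 29 were lower in the male library, 19 of them beyond counting error. Of all genes 50.8% were lower in the male library and 17.2% were lower beyond counting error. The median difference was -0.18, against 0.00 over all genes. Msmo1 was 1.55-fold (1.47 to 1.64), Tm7sf2 1.54-fold (1.13 to 2.12) and Hsd17b7 1.54-fold (1.40 to 1.70) higher in the female library. Liver, erythroid and skeletal muscle markers were also higher in the 2-week female library, with sums of 35913, 26445 and 5823 normalized counts against 13731, 9024 and 186 in the male library. Their part in these differences was not tested.

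At 12 weeks 2 members were at least 2-fold apart, against 8.83% of all genes (4.84% higher and 3.98% lower in the male). Mvd, the mevalonate diphosphate decarboxylase, had 233.5 normalized counts in the male and 109.7 in the female library, 2.13-fold higher in the male (1.65 to 2.76). Hsd17b7 had 314.6 and 633.6, 2.01-fold higher in the female (1.72 to 2.36). Insig1 was 1.74-fold (1.61 to 1.87), Sqle 1.66-fold (1.43 to 1.92) and Stard4 1.61-fold (1.37 to 1.88) higher in the male library, whereas Nsdhl, the dehydrogenase of sterol demethylation, was 1.61-fold higher in the female (1.35 to 1.92). Of the 29 members 13 were higher and 7 lower in the male library beyond counting error, against 24% and 22.5% of all genes. Hsd17b7 and Msmo1 take part in the same demethylation of the sterol ring, and Msmo1 was 1.45-fold higher in the male (1.37 to 1.53). Scaled to equal totals, 1 member was at least 2-fold apart at 12 weeks.

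**Figure D5:**
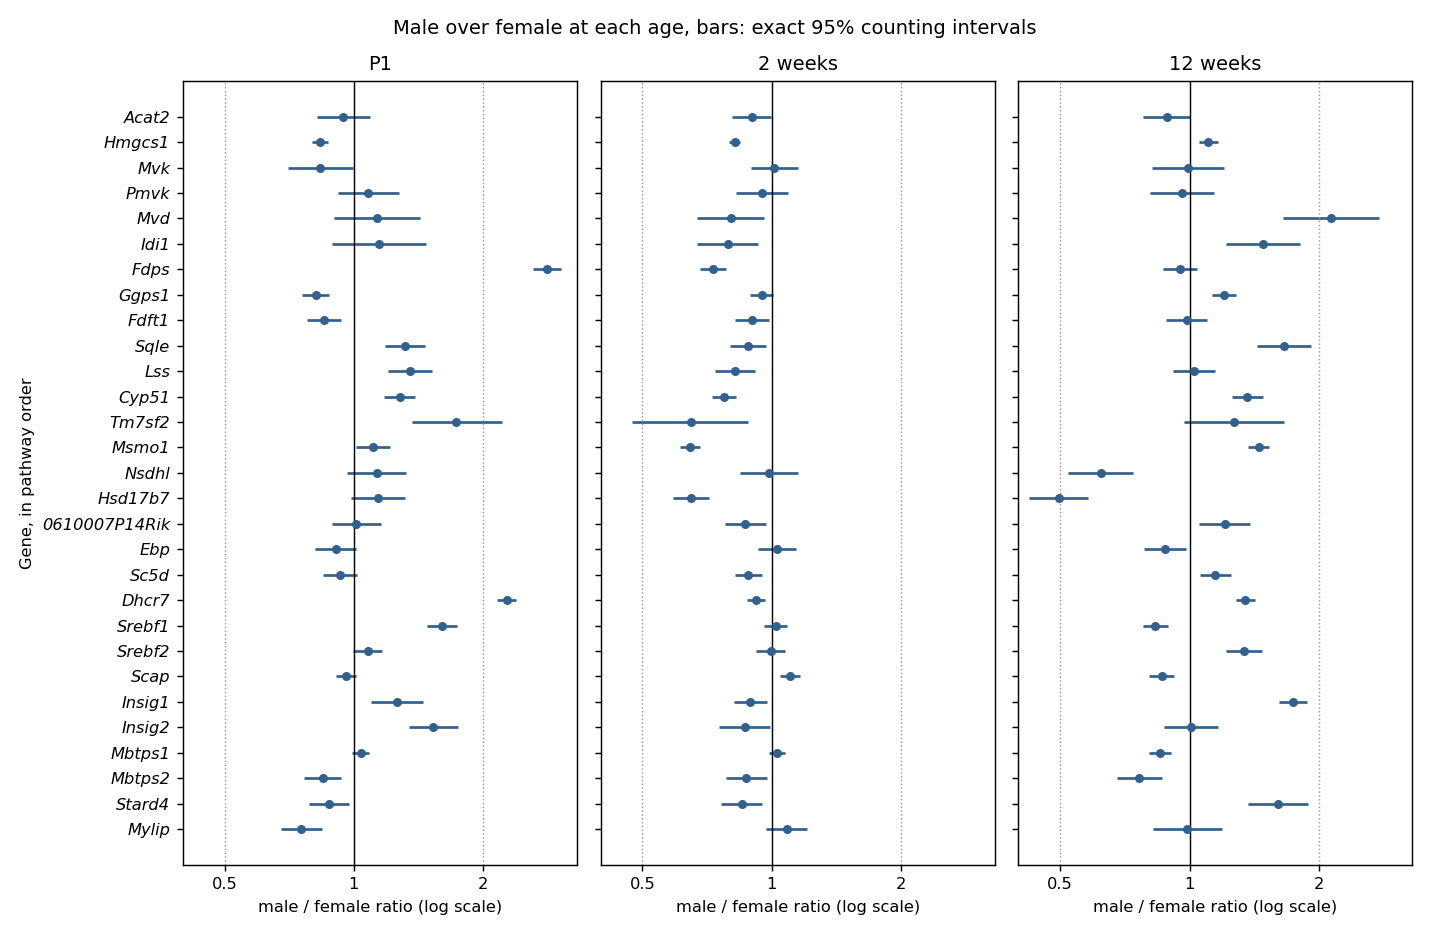
Male over female ratio of normalized counts (x axis, log scale, bars are exact 95% counting intervals) for the 29 members (y axis) at 3 ages, with dotted lines at 2-fold. Fdps (2.81) and Dhcr7 (2.27) stand right at P1, most points lie left of 1 at 2 weeks, and Mvd (2.13) and Hsd17b7 (0.497) mark the extremes at 12 weeks.

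Genes next to the pathway were read from 3 further lists. Of 16 genes of fatty acid synthesis and other SREBP-1 targets, 4 rose in the first interval after P1, 5 rose between 2 weeks and 12 weeks, and 11 rose over the whole span from P1 to 12 weeks, with 0 falling. Of all genes 5.89%, 5.4% and 17.6% rose in these comparisons. The 11 included Scd1, a fatty acid desaturase, with 2785 normalized counts in P1 male, 1742 in P1 female, 123708 in 12 weeks male and 115190 in 12 weeks female (log2 5.76 ± 0.23 SE, adjusted p 8.18e-05 in limma), and Fasn, the fatty acid synthase, with 4354, 5337, 54878 and 54185 (3.50 ± 0.18, adjusted p 0.000112). Adipocyte markers were also higher at 12 weeks than at P1 (above), and their part was not tested. The median difference of this list from P1 to 12 weeks was 1.32, against 0.17 for the members.

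Across birth 14 of those 16 genes were below E18.5 on average, with a median of -0.65, against 0.03 over all genes. In limma 0 of them were called and 7 had an unadjusted p under 0.05, against 13.9% of all genes. Of 15 genes of the other isoprenoid branches, which make dolichol, ubiquinone and prenyl groups, 6 rose from P1 to 12 weeks, where 17.6% of all genes did, among them Coq2 of ubiquinone synthesis (1.13 ± 0.21, adjusted p 0.00684 in limma) and Icmt, a methyltransferase of prenylated proteins (0.72 ± 0.16, adjusted p 0.0128). Of 9 tested genes of oxysterol sensing 2 fell over that interval, Rxra and Cyp7b1, a share near the 23.5% of all genes that fell. In the sex comparison 0 genes of these 3 lists passed.

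How alike the members were over the 7 libraries is given as a description, since the libraries share ages. Pearson's r with the mean of the other members was highest for Cyp51 (0.97), Idi1 (0.91), Lss (0.84), Pmvk (0.81) and Sc5d (0.80). It was below 0 for Mylip (-0.59), Scap (-0.54), Mbtps1 (-0.28), Mbtps2 (-0.27) and Ggps1 (-0.02). Among 12226 other genes that averaged 100 or more normalized counts, the mean profile of the members was most like those of Copb1, Hmgn3, Elavl1, Rabggtb, Srsf7, A530020G20Rik, Ccnl2, Mrps22, Nudt5 and Dscr3, with r from 0.97 to 0.93. Rabggtb, a subunit of the Rab prenyltransferase, had 1203 at E18.5, 783.1 and 610.4 at P1, and 838.3 to 929.9 later. All 10 were highest at E18.5. Pearson's r takes no account of the size of a change, which was unequal among them. Copb1 had 4067 at E18.5 and 3519 in P1 female, and A530020G20Rik had 1313 and 106.0 in the same order.

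Some members share exons with another annotated gene in GENCODE M21, and the strand setting of the counting is not given in the sources used here. Fdft1, the squalene synthase, shares 18.3% of its exon bases with Ctsb on the opposite strand, and Mbtps2 shares 28.4% with Yy2 on the same strand. Fdps shares 26.7% with the gene model Gm43738, Tm7sf2 12.1% with Vps51, and Hmgcs1 12.1% and Scap 13.2% with antisense or unclassified models. Ctsb, Yy2 and Vps51 are among the genes with deposited counts, and the values of Fdft1, Mbtps2 and Tm7sf2 are uncertain to that extent. The models that overlap Fdps, Hmgcs1 and Scap are not among them under their GENCODE M21 names. Whether those models were counted under another name is not known.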

How the data were processed

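RNA-seq of pooled mouse adrenal glands gave 7 libraries, 1 for each group of age and sex. Per the submitters' processing notes, CASAVA 1.8.2, HISAT2 2.1.0, HTSeq 0.9.1, DESeq2 2.11.40.6 and the mouse build mm10 were used. The annotation and the strand setting are not given in the sources used here. The authors deposited normalized counts, a signal scale in which whole reads are divided by 1 size factor per library. The reads were recovered from it, with 100.0% of values whole within 0.01 read. The table has 35976 genes, of which 8722 had no reads.

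Values were taken as log2(normalized count + 1) for genes with a mean of at least 10, which left 16720, and tested in limma 3.58.1 (R 4.3.3) with a variance trend and Benjamini-Hochberg adjustment over all of them, at 0.05. A fold change on this scale understates that of low genes. E18.5 and P1 were compared over all 7 libraries with ages as groups. Postnatal ages were compared over 6 libraries with sex as a block, and the sexes with age as a block. Single libraries were compared by ratio, with exact 95% intervals for counting error and a limit of 2-fold. edgeR 4.0.16 on the recovered reads, other pseudocounts, filters and scalings, a fit without a variance trend, and leaving out each library were alternatives. Members were named by role, by passing the test and by size of difference, and the 10 most similar genes by Pearson's r. The members and gene lists were chosen with earlier results of these data known. Exon lengths and overlaps come from GENCODE M21 and promoters from RefSeq, both on GRCm38. A further gene list is not reported here.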

Additional observations from a re-analysis of the deposited data

Results flagged for a closer look

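Tm7sf2 was higher in the male library at P1, by 0.79 on the log2 scale, and lower in the male library at 2 weeks, by a difference of -0.62. Fdps went from P1 to 2 weeks in opposite directions, with a difference of -1.10 in males and 0.84 in females. The median male minus female difference over the 29 members was 0.11 in the P1 libraries, -0.18 in the 2-week libraries and 0.038 in the 12-week libraries. With 1 library per age and sex, these differences between ages or sexes were not tested, and the female Fdps value and the differences between the sexes at P1 use the library labelled P1 female, which contained Y-linked transcripts.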

How the results depend on the processing

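The count of members called was 0 under every alternative run for E18.5 to P1 and for male minus female. From P1 to 2 weeks it was 7, and it became 0 with genes of a mean above 0, 0 without a variance trend, and 0 to 11 when 1 library was left out. From 2 weeks to 12 weeks it was 3, and it became 0 with genes of a mean above 0, 1 without a variance trend, 5 scaled to equal totals, and 0 to 5 when 1 library was left out. From P1 to 12 weeks it was 8, and it became 4 with genes of a mean above 0 and 2 to 7 when 1 library was left out. The cause was not tested. With edgeR the counts were the same, at 7, 3 and 8.

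Median member differences with 1 library left out ran from -0.56 to -0.42 for E18.5 to P1, 0.11 to 0.42 for P1 to 2 weeks, -0.069 to 0.14 for 2 weeks to 12 weeks, 0.065 to 0.39 for P1 to 12 weeks and -0.05 to 0.14 for the sexes. Scaled to equal totals, the median from 2 weeks to 12 weeks was -0.22, where that of all genes was -0.20. At a 1.5-fold limit in place of 2-fold, 5 members at P1, 3 at 2 weeks and 6 at 12 weeks differed between the sexes, and scaled to equal totals 1 differed at 12 weeks by 2-fold. For single members, of 288 alternative values of called differences 206 stayed past the threshold, 82 did not and 0 reversed. The main fits between postnatal ages paired libraries by sex and those between sexes by age. The main fit of E18.5 against P1 had no sex term and no pairing. No further pairing by replicate number could be made, since the labels give none.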
